A study of Mus musculus with 4 samples.

Results

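Glycolytic enzymes were followed in cultured mouse spleen cells through 10 genes, Hk1, Hk2, Gpi1, Pfkl, Pfkp, Aldoa, Pgk1, Eno1, Pkm2 and Ldha. The members were all non-control probes whose gene name in the scanner files is one of these symbols. They came to 16 probes among 39429 on the array, and 15 of them were tested among 25373 probes. RNA came from splenocytes of female C57BL/6 mice aged 8 weeks, kept for 72 h in medium that held IL-4 and LPS in every culture. The imatinib group also received 10 µM imatinib, a small molecule that blocks tyrosine kinases such as ABL and KIT, and the control group received none. There were 2 arrays for each group (Agilent, 1 colour), on 1 slide that held all 4, with the groups at alternating positions. The labels do not say whether the arrays of a group came from separate mice or cultures, so the p-values may measure technical spread alone. Precision is limited by the small number of arrays.

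Glycolysis splits glucose into pyruvate in the cytosol and yields ATP and NADH. Hexokinase traps glucose as glucose 6-phosphate, phosphofructokinase commits it to the pathway, and lactate dehydrogenase turns pyruvate into lactate while restoring NAD+. Most steps have several isoenzymes encoded by separate genes. B cells stimulated with LPS or IL-4 are known to raise glucose uptake and glycolysis as they grow and divide, and the factors MYC and HIF-1 are known to drive many of these genes.

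The probes of 4 of the genes, Hk1, Gpi1, Pfkp and Ldha, could be compared with each other. All are 60 bases long, and they are shown to let a reader see which of them are separate measurements. Of the 16 probes, 6 hold the letters AATAAA, the usual polyadenylation signal near the end of an mRNA, against 12.6% of all probes on the array (forward strand searched). The 6 include every Gpi1 probe, and these are nearly the same oligo, so that count takes 1 site more than once. The 3 Ldha probes sample different stretches. The first has AATAAA, in capitals in this part of it (bases 30 to 59), and the other two are given whole and lack it.
Ldha A_55_P2012984: agtgtcatgccaAATAAAaccttgaacagt
Ldha A_55_P2141878: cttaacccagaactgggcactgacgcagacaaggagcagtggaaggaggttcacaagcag
Ldha A_55_P2141876: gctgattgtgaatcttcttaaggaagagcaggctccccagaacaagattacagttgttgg

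The 3 Gpi1 probes are nearly the same oligo. Against A_55_P2022434, the probe A_55_P1992208 shares 55 aligned bases with the substitution C13T, and A_55_P2030433 shares 56 with G20T, counted from 1 at the 5′ end of A_55_P2022434. They are therefore not independent measurements of Gpi1. Bases 6 to 29 of the first are shown beside the matching stretch of the others, with the differing base in capitals.
Gpi1 A_55_P2022434: tgttgttctgacctgtatttcaca
Gpi1 A_55_P1992208: tgttgttTtgacctgtatttcaca
Gpi1 A_55_P2030433: tgttgttctgacctTtatttcaca

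The Eno1 probe has a near copy on the array, a probe named Gm5506 in the files (Eno1b in RefSeq). The copies share 57 aligned bases with 1 substitution, A57C, counted from the 5′ end of the Eno1 probe, so signal from the related genes cannot be told apart. The last 30 bases of the Eno1 probe and the matching stretch of its copy are shown, with the differing base in capitals.
Eno1 A_55_P1958097: caaaaataaaagccgcagaagtccaaaaaa
Gm5506 A_55_P2008327: caaaaataaaagccgcagaagtccaaCaaa

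All member probes were well above background on all 4 arrays, and none was saturated. Values are log2 signals after each array's own 75th percentile was set to 0. Before scaling, that percentile was 652 and 632 intensity units with imatinib and 688 and 788 without. The labels give splenocytes, a mixed population, and all 10 B cell markers of the list, Cd79a and Cd79b among them, were bright enough to be tested. Of these markers 5 were lower and 1 was higher with imatinib. Of 11 T cell markers 10 were higher and none was lower, and of 9 tested macrophage markers 5 were higher and none was lower (limma, 2 arrays each). Over all tested genes 19.2% were higher and 22.6% were lower. Plasma cell markers went both ways (3 higher and 2 lower of 6), as did dendritic cell markers (1 higher and 2 lower of 5 tested). Of 3 tested stroma or endothelium markers 1 was lower, and of 3 tested erythroid markers 1 was higher. The summed T cell signal, in units of the 75th percentile, was 53.0 and 53.1 with imatinib and 26.1 and 25.7 without. The macrophage sum was 9.27 and 9.33 against 4.32 and 4.16, with C1qa and C1qc not above background on any array, and the B cell sum was 360 and 366 against 412 and 387. Of the tested markers of other types, 4 of 4 were higher for mast cells or basophils and 4 of 6 for neutrophils (1 lower). For NK cells 2 of 3 were higher, and for platelets 1 of 2. Among the higher markers, Cpa3, Mcpt8, S100a9 and Itgax were not above background on all 4 arrays. They may have been tested only through the imatinib arrays, where they were higher, so their place in these counts may follow from the filter. Without them the higher markers left were Kit and Tpsb2 for mast cells or basophils and S100a8, Mpo and Camp for neutrophils. For dendritic cells none was left. Fcer1a and Ms4a2 of the mast cell list and Retnlg of the neutrophil list were not above background on any array. Nor were Klrb1c, Klrk1 and Ncr1 (NK cells) or Gp1ba, Gp9 and Ppbp (platelets). The platelet marker Pf4, picked after its values were seen, was 20.2-fold higher. The other tested platelet marker, Itga2b, did not pass (adjusted p = 0.12 in limma). The summed neutrophil signal was 2.91 and 3.23 with imatinib and 3.78 and 3.54 without. Ly6g, the brightest tested marker in that sum, was the only lower one (log2 signal 0.74 and 0.89 against 1.43 and 1.40). In such bulk RNA, fewer cells of a type and less RNA per cell cannot be told apart, and the part of these shifts in the results that follow was not tested.

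Ldha, Pgk1, Eno1 and Hk2 fell with imatinib, Pfkp rose, and the other genes did not pass on their brightest probe. Of the 15 tested member probes, 7 were lower at an adjusted p under 0.05, against 23.5% of all tested probes. They were the 3 Ldha probes, Pgk1, Eno1, Hk2 and 1 of the 2 Hk1 probes. A single probe, for Pfkp, was higher, against 19.1% of all tested probes, and 7 did not pass. With the brightest probe standing for each gene, 4 of the 10 genes were lower (background 22.6% of 20498 genes) and 1 was higher (19.2%). The median log2 difference over the 10 genes was -0.14, while that over all tested genes was 0.0012. For 12 of the 15 probes both arrays of one group lay beyond both of the other, as for 73.7% of all probes. The imatinib arrays were the lower ones, without overlap, for 9 of the 15 member probes, against 39.2% of all tested probes. All differences were small, from -0.56 to 0.63 on the log2 scale. Without imatinib 1, or without imatinib 2, only 1 of the 7 lower probes still passed, Ldha A_55_P2141878, when the lone array is assumed to vary like the other group. The only higher probe then no longer passed.

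**Figure D1:**
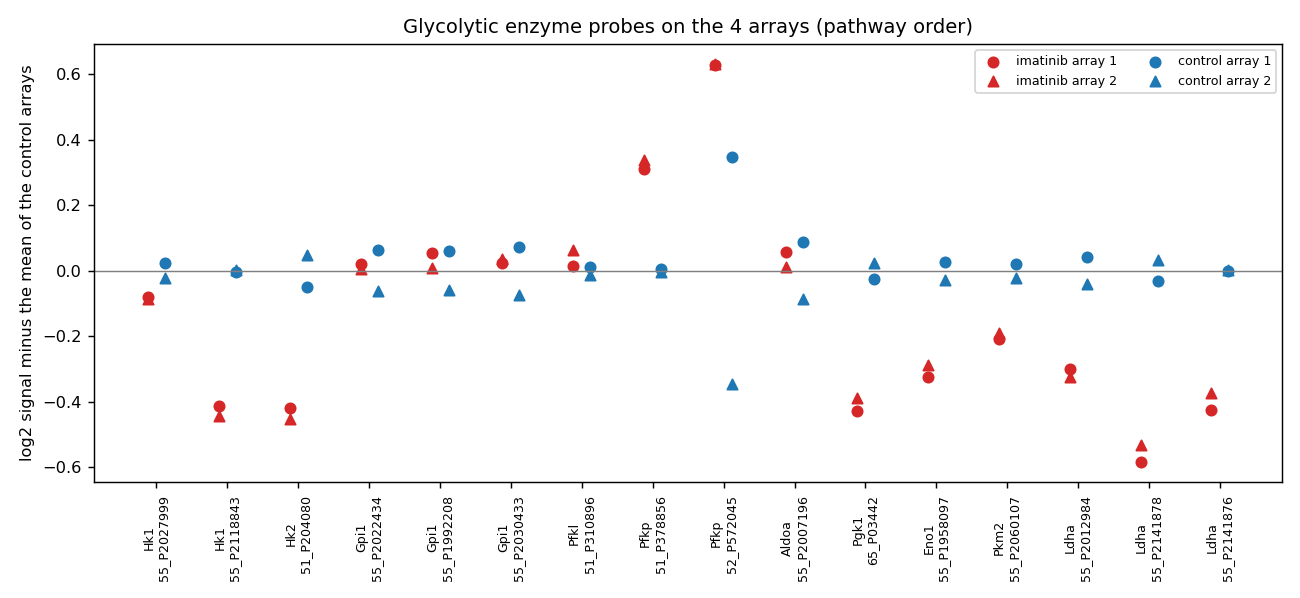
Signals of the 16 member probes on the 4 arrays, in pathway order. The vertical axis is the log2 signal minus the mean of the control arrays for that probe, red symbols are imatinib arrays and blue symbols control arrays. Both imatinib arrays sit below both control arrays for the Ldha, Eno1, Pgk1, Pkm2, Hk1 and Hk2 probes, and above them for both Pfkp probes.

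Lactate dehydrogenase A, which makes lactate from pyruvate at the end of fermentative glycolysis, fell on all 3 of its probes. On A_55_P2141878 the log2 signal was 4.31 and 4.36 with imatinib and 4.86 and 4.93 without. Both imatinib arrays lay well below both control arrays. The difference was -0.56 (SE 0.063, adjusted p = 0.0067), or 0.679-fold. On A_55_P2141876 the signals were 2.36 and 2.41 against 2.78 and 2.78, a difference of -0.40 (SE 0.059, adjusted p = 0.011). On A_55_P2012984, the probe with AATAAA, they were 7.33 and 7.31 against 7.67 and 7.59, a difference of -0.31 (SE 0.064, adjusted p = 0.024). The groups did not overlap on any of the probes. A near copy of this last probe, which carries no gene name in the files, differed by -0.31 (SE 0.074, adjusted p = 0.036). Over the alternatives the adjusted p ran from 2.7e-06 to 0.0499 for A_55_P2141878, from 3.4e-05 to 0.082 for A_55_P2141876 and from 0.0012 to 0.14 for A_55_P2012984. The last failed without control 1 (adjusted p = 0.068), imatinib 1 (0.116) or imatinib 2 (0.135), and A_55_P2141876 failed without imatinib 1 (0.082) or imatinib 2 (0.067).

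Phosphoglycerate kinase 1, the first ATP-making enzyme of the pathway, fell as well. Its log2 signal was 5.64 and 5.68 with imatinib and 6.04 and 6.09 without, with no overlap. The difference was -0.41 (SE 0.060, adjusted p = 0.011), or 0.753-fold. A probe of a near-identical sequence with no gene symbol in the files differed by -0.42 (SE 0.060, adjusted p = 0.011), so transcripts of copies cannot be told apart here. Enolase 1, which makes phosphoenolpyruvate, had signals of 5.84 and 5.88 against 6.20 and 6.14. It fell by 0.31 on the log2 scale (SE 0.061, adjusted p = 0.022). Its copy Gm5506 had 5.79 and 5.83 against 6.19 and 6.12, a difference of -0.34 (SE 0.063, adjusted p = 0.019). Without any 1 of the 4 arrays Enolase 1 did not pass, with adjusted p = 0.132 and 0.110 without imatinib 1 and 2 and 0.065 and 0.055 without control 1 and 2. For Pgk1 the adjusted p rose to 0.079 and 0.068 when imatinib 1 or imatinib 2 was left out.

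Pyruvate kinase, Pkm2 in the files and Pkm in RefSeq, makes pyruvate and the second ATP. Its log2 signal was 5.48 and 5.50 with imatinib and 5.71 and 5.67 without. The groups did not overlap, but the difference of -0.20 (SE 0.059, adjusted p = 0.059) missed the threshold in limma, with a 95% interval of -0.36 to -0.04. It passed under median centring (-0.23, adjusted p = 0.039), with normexp background correction (-0.24, adjusted p = 0.011), with spike-in scaling (-0.46, adjusted p = 0.0059) and with a trended, robust variance (adjusted p = 0.0093). Which spliced form of the enzyme the probe detects was not analysed here.

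The hexokinases did not give a single answer. Hexokinase 2, the inducible and mitochondria-bound form of growing cells, had signals of 0.43 and 0.40 with imatinib and 0.80 and 0.90 without. It fell by 0.44 on the log2 scale (SE 0.067, adjusted p = 0.012), with no overlap. Hexokinase 1, the form found in most tissues, differed between its probes. Probe A_55_P2118843 had -1.31 and -1.34 against -0.91 and -0.90, a difference of -0.43 (SE 0.057, adjusted p = 0.0093). The brighter probe A_55_P2027999 had 2.98 and 2.97 against 3.08 and 3.04, a difference of -0.08 (SE 0.058, adjusted p = 0.31) with a 95% interval of -0.24 to 0.08. The log2 difference between these probes within an array was 4.29 and 4.32 with imatinib and 3.99 and 3.94 without, a change of 0.34 (exact permutation p = 0.333, two-sided, the smallest that 2 against 2 arrays can give). The direction of the brighter Hk1 probe turned to 0.04 under quantile normalization, and with spike-in scaling it was -0.35 (adjusted p = 0.016). Leaving out imatinib 1 or imatinib 2 ended the call of the dimmer Hk1 probe (0.062 and 0.070) and of Hk2 (0.069 and 0.079, adjusted p in limma). The dimmer Hk1 probe is shown whole for comparison, and no near copy of it was found on the array.
Hk1 A_55_P2118843: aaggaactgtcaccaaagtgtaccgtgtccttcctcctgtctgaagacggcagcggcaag

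Phosphofructokinase had 1 isoenzyme higher and another that did not pass. Pfkp, the platelet type, had signals of 1.59 and 1.61 with imatinib and 1.28 and 1.27 without on A_51_P378856, with no overlap. It rose by 0.32 (SE 0.057, adjusted p = 0.017), or 1.25-fold. The dimmer Pfkp probe A_52_P572045 had -3.21 and -3.20 against -3.49 and -4.18, with control 2 far below control 1. Its difference was 0.63 (SE 0.25, adjusted p = 0.12), and it was 0.28 without control 2 (adjusted p = 0.068). It passed without control 1 (0.98, adjusted p = 0.013), with normexp (0.31, adjusted p = 0.020) and with a trended, robust variance (adjusted p = 0.028). Pfkl, the liver type, had 0.66 and 0.71 against 0.66 and 0.63, a difference of 0.04 (SE 0.059, adjusted p = 0.63) with a 95% interval of -0.12 to 0.20. That call for A_51_P378856 was lost on leaving out imatinib 1 (0.097), imatinib 2 (0.114) or control 2 (0.058), and with dim probes left in (0.075, all adjusted p in limma). With spike-in scaling the difference was 0.06 (adjusted p = 0.54).
Pfkp A_51_P378856: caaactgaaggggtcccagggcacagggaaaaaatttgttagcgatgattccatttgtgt

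Gpi1 and Aldoa did not pass. Gpi1, glucose phosphate isomerase, had 6.50 and 6.46 with imatinib and 6.51 and 6.39 without on A_55_P1992208, with overlap of the groups. The difference was 0.03 (SE 0.072, adjusted p = 0.76), with a 95% interval of -0.17 to 0.23. On A_55_P2030433 the signals were 6.35 and 6.36 against 6.40 and 6.25. On A_55_P2022434 they were 6.51 and 6.49 against 6.55 and 6.42, but imatinib 1 was marked as an outlier spot there, so this probe was left out of the fit. Aldolase A, which splits fructose 1,6-bisphosphate, had 7.62 and 7.57 against 7.65 and 7.47. Both imatinib arrays lay between the control arrays, and the difference was 0.03 (SE 0.085, adjusted p = 0.77) with a 95% interval of -0.20 to 0.27. The sign of all these values turned with the scaling, to -0.23 for Aldoa, for both tested Gpi1 probes and for Pfkl under spike-in scaling.

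**Figure D2:**
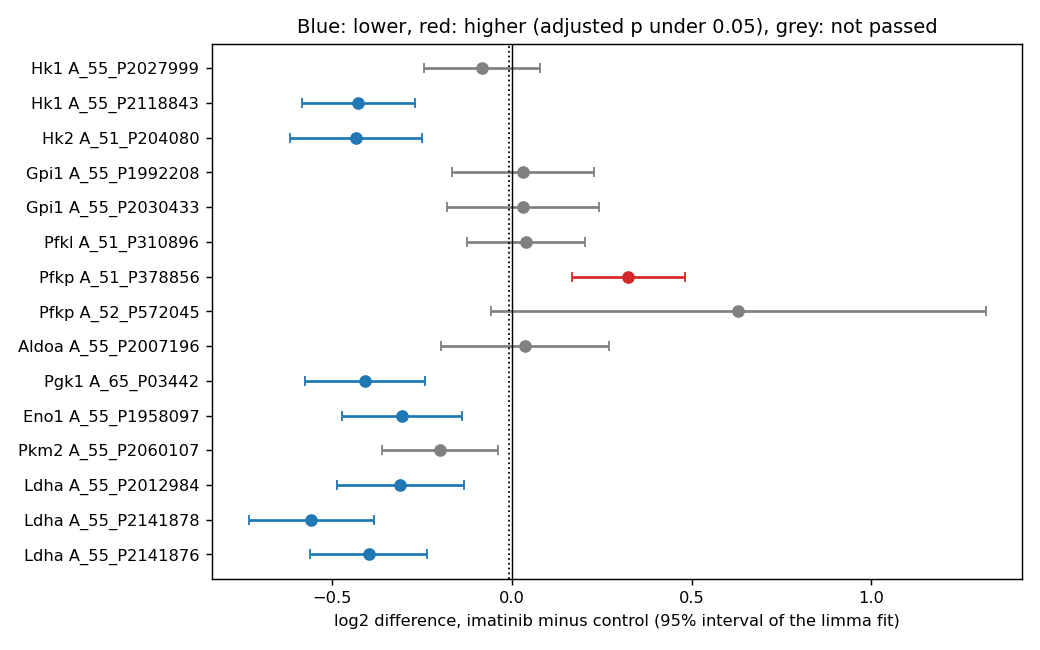
Log2 difference (imatinib minus control) of the 15 tested member probes with its 95% interval from the limma fit, on the horizontal axis. Blue marks the 7 lower probes, red the 1 higher probe and grey the 7 that did not pass, and the dotted line is the median of all tested probes at -0.01.

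The level of the differences depended on the scaling. Spike-in scaling moved the median difference of all tested probes from -0.01 to -0.27, and 9 member probes were then lower and none was higher in limma (also 0 higher at an unadjusted p under 0.05). Over all probes the split went from 4844 higher and 5952 lower to 2827 higher and 11697 lower. The 7 probes that were lower in the fit kept a negative difference under all 4 other scalings and background corrections plotted. Both Pfkp probes kept a positive one.

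**Figure D3:**
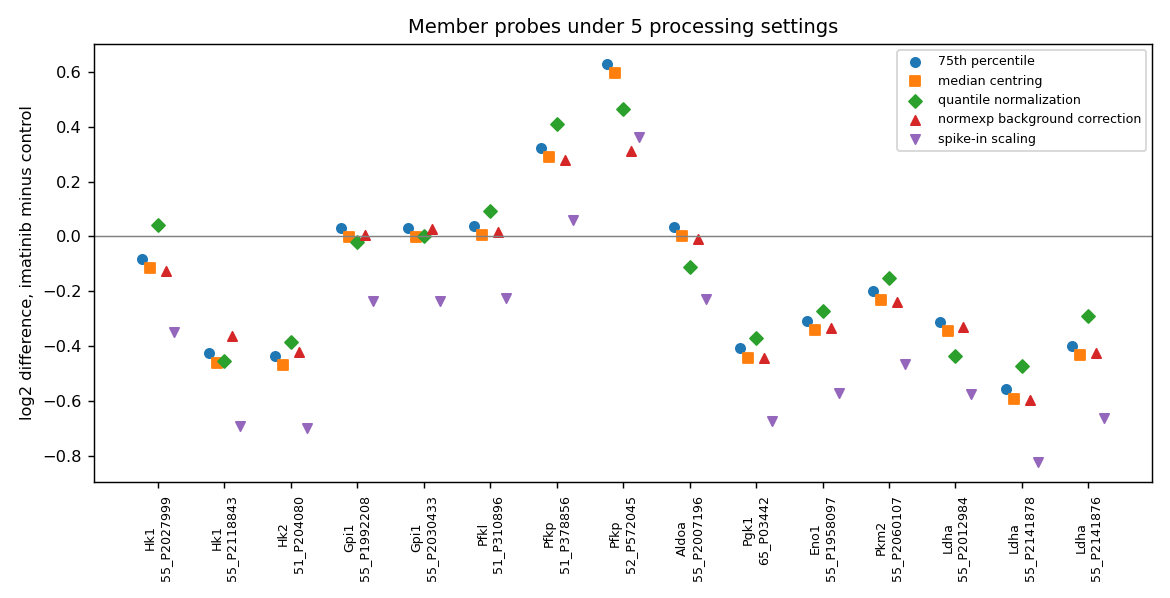
Log2 difference (imatinib minus control, vertical axis) of each tested member probe under 5 processing settings, given by colour and symbol. The spike-in values lie below the others for 14 of the 15 probes, with Ldha A_55_P2141878 lowest at -0.82.

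At several steps the isoenzyme outside the member list moved the other way from the member. These comparisons were chosen after the values were seen. Taking the difference of 2 probes within an array cancels the scaling by a constant. Ldhb, the lactate dehydrogenase chain that favours pyruvate, rose by 1.77 (SE 0.082, adjusted p = 0.0011), from -3.87 and -3.85 in control to -2.00 and -2.17. Relative to Ldha on its brightest probe the change was 2.08. Eno2, the neuron-type enolase, had 0.33 and 0.33 with imatinib and -0.75 and -0.81 without, a rise of 1.11 (SE 0.061, adjusted p = 0.0015). Its change relative to Eno1 was 1.42. Hk3, a hexokinase of myeloid cells, had -3.12 and -3.08 against -4.75 and -5.17, and it rose by 1.86 (SE 0.16, adjusted p = 0.0037). Its change relative to Hk2 was 2.30. Aldoc, named after its values were seen, rose by 0.80 (SE 0.065, adjusted p = 0.0035) and by 0.76 relative to Aldoa. Pfkp changed by 0.28 relative to Pfkl, and Hk1 on its brighter probe by 0.35 relative to Hk2. The dimmer Hk1 probe is not part of that comparison, and its difference of -0.43 was close to the -0.44 of Hk2. In all 7 probe pairs compared, with that of Hk1, the arrays of the groups did not overlap. No share over other probe pairs was taken, and 73.7% of single tested probes did not overlap either. Since the pairs were chosen after their values were seen, that count is not a result about them. The exact permutation p was 0.333 for each, also after Benjamini-Hochberg adjustment over the 7, the smallest the design allows. With normexp the changes relative to the member were 1.40 for Ldhb, 1.33 for Eno2, 1.20 for Hk3 and 0.75 for Aldoc. The rises of the genes themselves were then 1.07 for Ldhb, 0.99 for Eno2, 0.77 for Hk3 and 0.74 for Aldoc. Summed T cell and macrophage markers were higher on the same imatinib arrays (53.0 and 53.1, 9.27 and 9.33). The sums for mast cells or basophils, NK cells and platelets were higher too. Each of those lists held markers not above background on any array, and only Pf4 passed for platelets. Plasma cell, dendritic cell and erythroid sums were also higher on both imatinib arrays. The B cell and neutrophil sums were lower, and the groups overlapped for stroma or endothelium. The part of all these markers in the rises above was not tested.

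**Figure D4:**
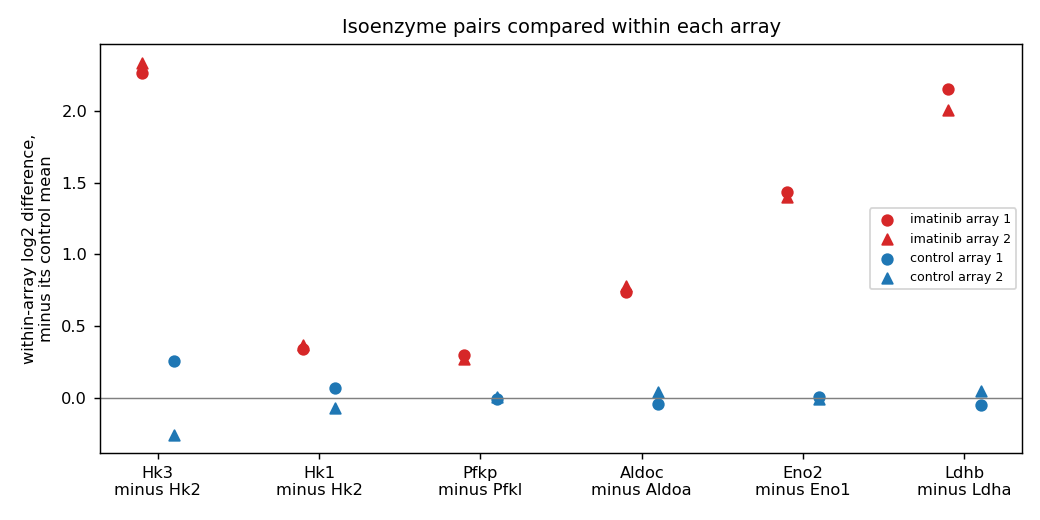
Within-array log2 difference between the brightest probes of 2 isoenzymes, minus its control mean, on the vertical axis, for 6 pairs. Red symbols are imatinib arrays and blue symbols control arrays. Both imatinib arrays lie above both control arrays in every pair, by 2.30 for Hk3 minus Hk2 and by 0.28 for Pfkp minus Pfkl on average.

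Among the other enzymes of these steps, 4 of 14 tested genes were higher and 2 were lower, where 19.2% and 22.6% of all genes were. Pgam1, phosphoglycerate mutase, which works between Pgk1 and Eno1, had 5.12 and 5.15 against 5.59 and 5.66 and fell by 0.49 (SE 0.062, adjusted p = 0.0084). Bpgm, which makes 2,3-bisphosphoglycerate, fell by 0.32 (adjusted p = 0.025). Tpi1, triose phosphate isomerase, differed by -0.05 (SE 0.058, adjusted p = 0.52) on its brightest probe. The brightest Gapdh probe differed by -0.19 (SE 0.079, adjusted p = 0.13), with 8.42 and 8.34 against 8.63 and 8.50. It passed with normexp (-0.21, adjusted p = 0.032), quantile normalization (-0.31, adjusted p = 0.021), spike-in scaling (-0.45, adjusted p = 0.013) and a trended, robust variance (adjusted p = 0.049). The other 6 Gapdh probes were all lower, by -0.77 to -0.38 (largest adjusted p = 0.018). Gapdh has many processed copies in the genome, so the target of each probe is uncertain. Pgam1 no longer passed when imatinib 1 or imatinib 2 was left out (adjusted p = 0.059 and 0.056), nor did Bpgm (0.136 and 0.113), which also failed without control 2 (0.077).

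Among the transporters at the ends of the pathway, Slc16a3 and Slc16a7 rose and Slc2a3 fell. Slc2a3, the high-affinity glucose transporter GLUT3, had -0.44 and -0.35 with imatinib and 0.45 and 0.53 without. It fell by 0.89 (SE 0.070, adjusted p = 0.0033). Slc2a1, the glucose transporter GLUT1 of most growing cells, had 1.34 and 1.22 against 1.19 and 1.16 and differed by 0.11 (SE 0.071, adjusted p = 0.30). Slc16a3, the lactate exporter MCT4, had 0.76 and 0.87 against -1.36 and -1.58. It rose by 2.28 (SE 0.10, adjusted p = 0.0011), or 4.87-fold, and its second probe differed by 2.27 (adjusted p = 0.0013). Slc16a7, another monocarboxylate carrier, rose by 1.79 (SE 0.086, adjusted p = 0.0012), on a probe that holds a run of 12 bases of a short repeat. With normexp that rise was 0.91, and its other probes differed by 2.49 (adjusted p = 0.0017) and 1.29 (adjusted p = 0.35). Slc16a1, the carrier MCT1, differed by -0.08 (SE 0.20, adjusted p = 0.77). Of the 6 transporters 2 were higher and 1 was lower, with 19.2% and 22.6% of all genes. Summed markers of several cell types differed on the same arrays, as given above, and their part in these differences was not tested.

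The pentose phosphate branch, which takes glucose 6-phosphate to NADPH and ribose, had 5 of 8 genes lower and none higher (background 22.6% lower). Pgd, 6-phosphogluconate dehydrogenase, had 2.73 and 2.76 with imatinib and 3.55 and 3.55 without. It fell by 0.80 (SE 0.057, adjusted p = 0.0026). Rpia, which makes ribose 5-phosphate, fell by 0.50 (adjusted p = 0.0076) and Tkt, transketolase, fell by 0.36 (adjusted p = 0.017). G6pdx and Taldo1, named because they complete the 5, differed by -0.34 and -0.22 (adjusted p = 0.040 and 0.049). The median of the list was -0.29. Of 7 genes of pyruvate oxidation in mitochondria 3 were lower and none was higher. They were the dehydrogenase subunits Dld (-0.53, adjusted p = 0.012), Pdhx (-0.35, adjusted p = 0.017) and Pdha1 (-0.35, adjusted p = 0.045). Leaving out imatinib 2 ended the calls of Rpia (adjusted p = 0.057), Tkt (0.091), Dld (0.067), Pdhx (0.110) and Pdha1 (0.185). Leaving out imatinib 1 ended those of Tkt (0.102), Dld (0.060), Pdhx (0.082) and Pdha1 (0.116). Tkt (0.058), Pdhx (0.052) and Pdha1 (0.110) also failed without control 2, and Pdhx without control 1 (0.055). G6pdx (adjusted p from 0.067 to 0.171) and Taldo1 (0.104 to 0.244) failed with any 1 array left out.

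Genes that regulate flux went both ways, with 3 of 12 higher and 2 lower, near the 19.2% and 22.6% of all genes. Myc, a factor known to drive glycolytic genes, had 0.89 and 0.84 with imatinib and 1.36 and 1.58 without and fell by 0.60 (SE 0.095, adjusted p = 0.013). Hif1a, added after its values were seen, had -0.76 and -0.88 against -0.73 and -0.58, a difference of -0.17 (adjusted p = 0.20) that passed with spike-in scaling (-0.43, adjusted p = 0.025). Pfkfb3, which makes the activator of phosphofructokinase, rose by 0.29 (adjusted p = 0.025). That value was 0.02 with spike-in scaling (adjusted p = 0.84). Pdp1 and Pdp2, phosphatases that activate pyruvate dehydrogenase, went in opposite directions (0.72, adjusted p = 0.0060, and -0.58, adjusted p = 0.0091). Pdk2, a kinase that inhibits it, differed by 0.49 (adjusted p = 0.045). Dimmer probes of Pdk2 (0.33, adjusted p = 0.15), Pfkfb3 (0.49, adjusted p = 0.11) and Pdp1 (0.27, adjusted p = 0.16) did not pass. A further dimmer probe of Pdp1 (0.77, adjusted p = 0.0061) and one of Pdp2 (-0.69, adjusted p = 0.0051) did. Myc had an adjusted p of 0.059 and 0.068 on leaving out imatinib 1 or imatinib 2. Pfkfb3 failed with any 1 array left out (adjusted p from 0.070 to 0.149), Pdk2 without imatinib 1 (0.074), imatinib 2 (0.158) or control 2 (0.127), and with spike-in scaling (0.23, adjusted p = 0.13), and Pdp2 without imatinib 1 (0.051).

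In the list for the glycogen branch 4 of 10 genes were higher and 3 were lower. Pygl, the liver-type glycogen phosphorylase, rose by 1.78 (SE 0.10, adjusted p = 0.0017), while Pygb, the brain-type enzyme, fell by 1.17 (SE 0.067, adjusted p = 0.0017). With normexp the rise of Pygl was 0.85. Their signals were -2.94 and -3.17 against -4.88 and -4.79 for Pygl, and 0.12 and 0.20 against 1.29 and 1.36 for Pygb. Gbe1, the branching enzyme, rose by 0.49 (adjusted p = 0.0095). Pgm3 and Pgm2 (Pgm1 in the files), which shift phosphate on sugars, fell by 0.59 and 0.32 (adjusted p = 0.0079 and 0.018). Pgm1 of the same list (Pgm2 in the files), added after its values were seen, did not pass (-0.02, adjusted p = 0.77). A dimmer Pgm3 probe differed by only -0.09 (adjusted p = 0.58), with overlap of the groups. Of 5 tested genes of gluconeogenesis G6pc3, a glucose 6-phosphatase, was the only one to pass (0.41, adjusted p = 0.030). Pygl and Pygb passed with any array left out. With spike-in scaling Gbe1 was 0.22 (adjusted p = 0.090) and G6pc3 0.15 (adjusted p = 0.24). Gbe1 failed without imatinib 1 (adjusted p = 0.063) and Pgm3 without imatinib 2 (0.052). Pgm2 and G6pc3 failed without imatinib 1 (0.113 and 0.122), imatinib 2 (0.103 and 0.113) or control 2 (0.061 and 0.060). Over all 62 tested genes of these lists 14 were higher and 16 lower, with a median of -0.06, against 19.2% higher and 22.6% lower of all genes.

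**Figure D5:**
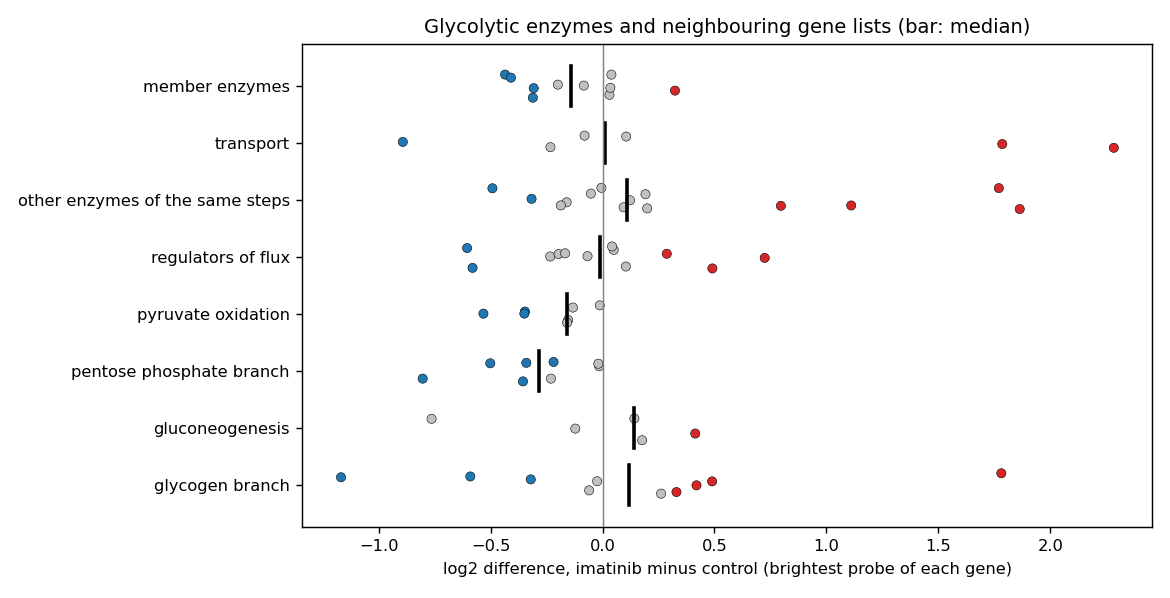
Log2 difference (imatinib minus control, horizontal axis) of the 10 member genes and of 7 neighbouring gene lists, 1 point for the brightest probe of each gene. Blue points are lower and red points higher at an adjusted p under 0.05, and black bars are medians, at -0.14 for the members and -0.29 for the pentose phosphate branch.

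The bases before the start sites of the 10 genes were searched for letters that MYC and HIF-1 are known to recognise. Whether these factors had a part in the differences above was not tested. The search covered both strands of the 250 bases before each of 17 RefSeq starts of the 10 genes (GRCm38.p6). The letters ACGTG, a core of the hypoxia response element, were found in 6 of the 17, against 16.6% of 32851 promoter windows of this length. The 5 genes were Aldoa, Hk2, Ldha, Pgk1 and Pkm, of which 3 fell and 2 did not pass. GCGTG, the other form of that core, was in 7 of 17, against 28.2%. Its genes were Eno1, Hk1, Ldha, Pfkl and Pfkp. Of these Eno1 and Ldha fell, Pfkp rose, and Hk1 and Pfkl did not pass on their brightest probe. Overlapping windows of Aldoa hold the same ACGTG, and overlapping windows of Eno1 the same GCGTG letters, so these counts take some sites more than once. CACGTG, the E-box of MYC, which also contains ACGTG on both strands, was found only for Ldha, in 1 of 17 windows, against 6.02%. The Ldha window chr7:46845554-46845803 (plus strand) holds CACGTG 2 times and 1 further ACGTG on the minus strand, and the Pgk1 window chrX:106186850-106187099 (plus strand) holds ACGTG 2 times. Both are printed with these letters in capitals, and a match is a description of the letters alone.
Ldha: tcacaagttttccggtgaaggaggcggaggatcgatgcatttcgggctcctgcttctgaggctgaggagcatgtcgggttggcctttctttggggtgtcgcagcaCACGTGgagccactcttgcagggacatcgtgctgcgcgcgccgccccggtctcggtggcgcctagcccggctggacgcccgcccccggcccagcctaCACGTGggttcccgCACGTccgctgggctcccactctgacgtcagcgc
Pgk1: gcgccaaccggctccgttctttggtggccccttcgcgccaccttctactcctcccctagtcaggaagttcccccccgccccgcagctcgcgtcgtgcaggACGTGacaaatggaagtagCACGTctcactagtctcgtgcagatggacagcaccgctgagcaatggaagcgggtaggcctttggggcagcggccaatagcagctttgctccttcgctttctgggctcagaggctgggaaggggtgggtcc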

How the data were processed

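Per the file headers, the authors made the scanner files with Feature Extraction 9.1.3.1. The deposited fluorescence intensity (processed signal) had a spatial and a multiplicative detrending within the array and no scaling between arrays. The deposited log2 values came from GeneSpringGX, which the series' design text names. They matched log2 of that signal, less the array's 75th percentile, within 0.01 for 99.9% of the probes.

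Here repeat spots of a probe were averaged on the log2 scale, leaving out spots marked as outliers, and scaled in the same way. Tested probes had to exceed background clearly on each array of 1 group or the other; 92 more were left out for a marked value. Groups were compared with limma 3.58.1 in R 4.3.3 (lmFit and eBayes, group only, two-sided, Benjamini-Hochberg over all 25373 tested probes, threshold 0.05). SE is on the log2 scale. The fit was tested on simulated data.

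The members and gene lists were chosen with earlier results of these data known. Named genes were all members, 7 further genes always named, and up to 3 per list and direction with the largest called change among genes above background on all 4 arrays; additions are marked, and 1 gene that the rule names is not reported here. RefSeq GRCm38.p6 gave names through accessions (26055 probes), symbols (3195) or synonyms (930), and 9249 kept the name in the files. Alternatives were normexp (offset 50), quantile normalization, median centring, spike-in scaling (8 probes), no filter, a stricter filter (background exceeded on all 4 arrays), the replicate block, each array left out, the deposited log2 values, a trended robust variance, outlier spots kept and the mean over probes of a gene. Deviations of same-numbered arrays correlated at r = -0.07 across probes, and the labels do not pair them.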

Additional observations from a re-analysis of the deposited data

How the results depend on the processing

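The number of probes called over the array, 10796, was 5148 without a filter on dim probes and 4388 to 8928 when 1 array was left out. The 7 lower member probes became 2 without that filter and 1 to 6 with 1 array left out (1 without imatinib 1 and 1 without imatinib 2). The 1 higher member probe became 0 without the filter, 0 with the replicate block and 0 with spike-in scaling, 2 with normexp, 2 with a trended robust variance and 0 to 2 with 1 array left out. At an unadjusted p under 0.05 in limma those counts of 0 were 1, 1 and 0, and 1 to 2 with 1 array left out. The replicate block left 5 member probes lower, without Eno1 (adjusted p = 0.068) and Ldha A_55_P2012984 (0.063); Pfkp A_51_P378856 also failed there (0.058). Same numbers do not show paired samples here (r = -0.07). The median over member genes, -0.14, was -0.23 with the mean over probes, -0.18 under median centring, -0.18 with normexp, -0.41 with spike-in scaling and -0.16 to -0.12 with 1 array left out. Of the pathway genes, 14 higher became 9 without the filter, 8 with spike-in scaling and 8 to 14 with 1 array left out, and 16 lower became 7 without the filter, 10 with the replicate block, 33 with spike-in scaling and 4 to 13 with 1 array left out. The cause of these changes was not tested, beyond the fewer arrays or wider set of probes that the settings themselves bring.

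Differences that did not pass turned sign as follows. Aldoa was -0.0089 with normexp, -0.11 under quantile normalization, -0.23 with spike-in scaling and -0.053 to 0.12 with 1 array left out (lowest without control 2). Gpi1 A_55_P1992208 was -0.0027, -0.019 and -0.23 under median centring, quantile normalization and spike-in scaling, and -0.028 to 0.090 with 1 array left out. Gpi1 A_55_P2030433 was -0.0033 and -0.23 under median centring and spike-in scaling, and -0.043 to 0.10 with 1 array left out. Hk1 A_55_P2027999 was 0.040 and Tpi1 0.011 under quantile normalization. Pfkl was -0.23 and Slc2a1 -0.16 with spike-in scaling, and Slc16a1 was -0.34 to 0.18 with 1 array left out. The isoenzyme comparisons kept their direction under all 14 alternatives, with ranges from 0.26 to 0.32 for Pfkp and Pfkl up to 1.20 to 2.56 for Hk3 and Hk2. The isoenzyme comparisons and the alternatives for Aldoc, Hif1a, G6pdx and Taldo1 were added after the data were seen.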
